A study of Mus musculus with 8 samples.

Results

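The cortical excitatory lineage transcription factors described here are 8 genes, Emx1, Emx2, Pax6, Eomes, Tbr1, Neurod1, Neurod2 and Neurod6, of 18141 genes in either of the deposited count tables. They were chosen by name, with earlier results of these data known. All 8 had counts in the table of the Drd1a-tdTomato sort (17836 genes by 11494 cells). The table of the golli-τ-eGFP sort (15769 genes by 11382 cells) held 7 of them, and Eomes was not analysed here in that sort.

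Single cells came from the frontal isocortex of C57BL/6J-backcrossed mice at postnatal day 7 and were sorted for 1 of 2 reporters. The D1Tom cells carried tdTomato from the Drd1a-tdTomato BAC, line 6, which marks cells that use the dopamine receptor D1 promoter. The GTE cells carried golli-τ-eGFP, a reporter used to label subplate and corticothalamic neurons. Every mouse, controls included, was Foxp2 flox/flox, and the conditional knockout (cKO) mice also carried Emx1-Cre. Each sort had 2 control and 2 cKO libraries of the droplet-based 3′ single-cell method, so n = 2 for every group. In the Emx1-Cre line Cre was inserted into the Emx1 gene, and it is active in cortical excitatory neurons, in cortical glia and in their progenitors. Because all cKO libraries and no control library carry that allele, effects on Emx1 of the inserted Cre and of the loss of Foxp2 cannot be told apart. In D1Tom, batch 1 held control 1 and cKO 1, and batch 2 held control 2 and cKO 2, where cKO 2 was male and the other 3 libraries female. Nothing in the labels gives more than the library for the number of animals behind each, so p-values measure the spread between these libraries.

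The 8 genes encode transcription factors that act in turn as the cortex forms its glutamatergic neurons. Emx2 and Pax6 are homeodomain factors of dividing cortical progenitors, found in opposing gradients in the embryo, and both persist in astroglial cells. Emx1 is the close relative of Emx2 and stays on in postmitotic excitatory neurons. Eomes (Tbr2) marks intermediate progenitors in the embryonic cortex and is also known from Cajal-Retzius cells and from the projection neurons of the olfactory bulb. Tbr1 specifies deep-layer and early-born neurons. Neurod1, Neurod2 and Neurod6 are basic helix-loop-helix factors of differentiating and mature excitatory neurons, and they bind E-boxes (CANNTG).

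The upstream sequences of Neurod2 and Neurod6 are shown because these 2 genes had the most similar pattern across cell types in the results below. They are from RefSeq, build GRCm38.p6, printed on the gene's own strand up to its start for Neurod6 and to 3 bases short of the RefSeq start for Neurod2, where the GENCODE gene begins. Capitals mark each CANNTG. The Neurod2 stretch covers chr11:98329649-98329895 and the Neurod6 stretch chr6:55681264-55681513, both on the minus strand.
Neurod2: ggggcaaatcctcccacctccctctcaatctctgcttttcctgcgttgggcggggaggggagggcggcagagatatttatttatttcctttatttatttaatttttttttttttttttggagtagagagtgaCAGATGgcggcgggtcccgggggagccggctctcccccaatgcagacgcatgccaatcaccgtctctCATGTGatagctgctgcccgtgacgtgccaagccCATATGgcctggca
Neurod6: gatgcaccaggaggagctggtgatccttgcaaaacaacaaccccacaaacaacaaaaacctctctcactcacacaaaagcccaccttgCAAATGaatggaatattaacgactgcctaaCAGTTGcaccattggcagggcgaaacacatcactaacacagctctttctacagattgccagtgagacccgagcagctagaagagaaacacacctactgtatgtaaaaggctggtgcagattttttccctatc
The Neurod2 stretch held 3 matches, at 118, 51 and 17 bases before the RefSeq start, and the first of them was CAGATG. The Neurod6 stretch held 2 matches, at 162 and 132 bases. CANNTG reads the same on both strands as a pattern, overlaps CAGATG and CAGCTG, and was found in 66.2% of 32851 RefSeq promoters over the same 250 bases. CAGATG was found on either strand in 14.4% of them. A match is a description of letters and not a measured site.

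By the GENCODE annotation of GRCm38, Emx1 (ENSMUSG00000033726) lies at chr6:85187438-85204462 on the plus strand and Emx2 (ENSMUSG00000043969) at chr19:59458372-59465357 on the plus strand. Pax6 (ENSMUSG00000027168) lies at chr2:105668900-105697364, Eomes (ENSMUSG00000032446) at chr9:118478212-118486132 and Tbr1 (ENSMUSG00000035033) at chr2:61802930-61814114, all on the plus strand. Neurod1 (ENSMUSG00000034701) lies at chr2:79452521-79456751, Neurod2 (ENSMUSG00000038255) at chr11:98325415-98329648 and Neurod6 (ENSMUSG00000037984) at chr6:55677822-55681263, all on the minus strand. Neurod1 overlaps Cerkl on the same strand, so reads could be shared between these 2 genes and the Neurod1 counts are less certain.

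Depth differed between the sorts. The D1Tom libraries held 2395 to 3206 cells and 27323298 to 36379194 counts, with medians of 7198 to 12815 counts per cell. The GTE libraries held 1440 to 3948 cells and 4878370 to 6092396 counts, with medians of 1085.5 to 2982 per cell. The protocol targeted 1000 cells a sample. Of 11391 D1Tom barcodes, 97 occurred in more than 1 library, as did 63 of 11316 GTE barcodes, and 205 occurred in both sorts. Values of 2 outnumbered values of 1 in D1Tom control 1 (1.69 times) and cKO 1 (1.54 times) and not in control 2 (0.723 times) or cKO 2 (0.307 times). The counts therefore do not behave like single molecules, and no counting interval is given for a sum.

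Foxp2, the floxed gene, was the check of the labels. In D1Tom excitatory neuron-like cells it stood at 56.4 and 52.3 CPM (counts per 1000000 counts of the cells summed) in control libraries against 15.2 and 19.8 CPM with cKO. Over all GTE cells Foxp2 stood at 9.52 and 46.9 CPM with control against 25.4 and 7.43 CPM with cKO genotype, so those groups overlapped. In GTE cells with excitatory marker counts it stood at 22.0 and 190 CPM against 15.7 and 8.96 CPM. In those cells 5 counts make 22.0 CPM in control 1, 1 count makes 7.87 CPM in cKO 1 and 2 counts make 8.96 CPM in cKO 2. Only control 2 was thus far above a few counts, and the check is weak in GTE. Whether the counted 3′ part of Foxp2 lies in the deleted exons is not given in the sources used here.

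Cells were grouped by clustering on genes other than the members and named from fixed marker lists that hold no member. In D1Tom, 20 of 24 clusters (80.5% of cells) took a name, and 3050 cells were excitatory neuron-like. The excitatory share of cells was 32.5% and 35.9% in control libraries against 24.4% and 14.995% with cKO. The sort for Drd1a-tdTomato thus held many cells that are not excitatory neurons, among them astrocytes, oligodendrocyte precursors and interneurons. In GTE, 8 of 15 clusters (23.7% of cells) took a name and none was excitatory. There, cells with counts from at least 3 excitatory markers and more counts from those lists than from any other were used instead (100, 124, 29 and 71 cells in control 1, control 2, cKO 1 and cKO 2).

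Across D1Tom cell types the members differed in where they were highest, as the heat map of mean levels in the controls shows. Levels below are means of the 2 control libraries in CPM, over 17 types or unnamed clusters with at least 10 cells in each control library, and are compared within a gene only. That rule left out layer 6 corticothalamic cells (67 and 7 control cells), the Sp8 Sp9 neuroblast cluster (22 and 4) and the unnamed cluster 20 (9 and 10). A highest type is thus the highest without these. The clusters were drawn from the same cells, so no test was made between types.

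**Figure D1:**
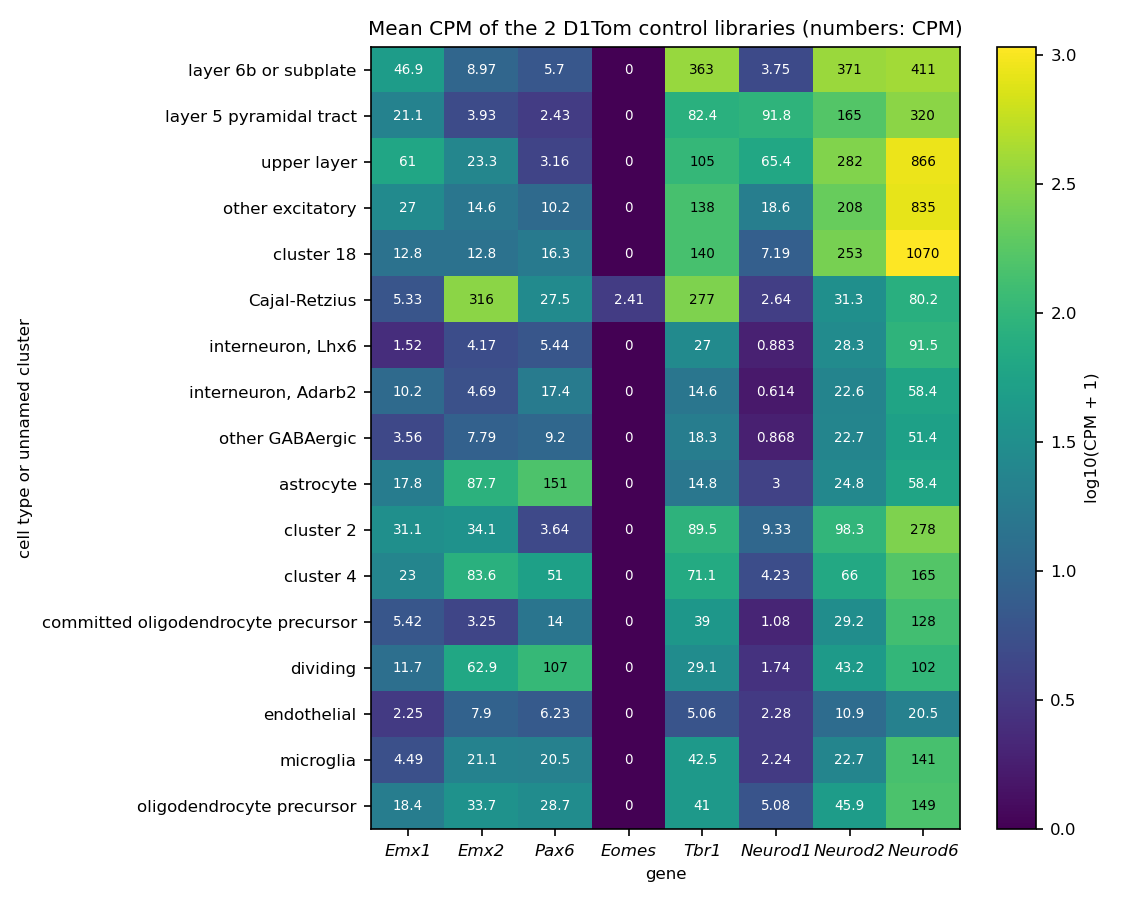
Mean level of the 8 genes (columns) in 17 D1Tom cell types or unnamed clusters (rows) over the 2 control libraries, in CPM, with colour on a log10(CPM + 1) scale. Emx2 is brightest in the Cajal-Retzius row, Pax6 in the astrocyte row, Tbr1 and Neurod2 in the layer 6b or subplate row and Neurod6 in the row of cluster 18.

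Pax6, the progenitor and glial factor, was highest in astrocytes, at 151 ± 15.7 CPM (SD, n = 2). Dividing cells followed at 107 ± 17.3 CPM and the unnamed cluster 4, which is led by the astrocyte genes Slc39a12 and Gja1, at 51.0 CPM. Upper-layer and layer 5 pyramidal tract neurons had 3.16 and 2.43 CPM of Pax6, near the 6.23 CPM in endothelial cells, a type that should lack it. Emx2 had its highest level in Cajal-Retzius cells, the early-born Reln neurons of layer 1, at 316 ± 99.8 CPM. Astrocytes held 87.7 ± 18.9 CPM of Emx2, cluster 4 83.6 ± 43.9 CPM and dividing cells 62.9 CPM. Of the 2 astrocyte clusters, the smaller was led by Cd74 and other genes of antigen presentation and by Gfap. After each cell was thinned to 1000 counts, Pax6 was found in 15.2% of 1116 control astrocytes (exact 95% interval 13.2% to 17.5%) against 0.588% of 170 endothelial cells. Emx2 was found in 23.8% of 122 Cajal-Retzius cells (16.5% to 32.3%) and 2.35% of endothelial cells. These intervals cover counting error only, and the median depth before thinning was 8433 counts in astrocytes, 15420.5 in Cajal-Retzius cells and 21222 in endothelial cells. Pax6 and Emx2 thus marked overlapping but differently ordered sets, with Cajal-Retzius cells at 27.5 CPM of Pax6.

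Emx1 had a different order from Emx2. Upper-layer neurons had 61.0 ± 17.6 CPM of Emx1 and layer 6b or subplate cells 46.9 ± 7.38 CPM, and these 2 overlapped. The unnamed cluster 2, led by Mgst3 and Cox6a1, followed at 31.1 CPM, other excitatory neurons at 27.0 CPM, cluster 4 at 23.0 CPM and layer 5 pyramidal tract neurons at 21.1 CPM. Emx1 was also counted in oligodendrocyte precursors (18.4 CPM) and astrocytes (17.8 ± 5.94 CPM), against 2.25 CPM in endothelial cells and 1.52 CPM in Lhx6 interneurons. At 1000 counts a cell, Emx1 was found in 3.17% of 1895 control excitatory cells (2.42% to 4.06%), in 1.79% of astrocytes and in 0 of 170 endothelial cells, which allows a share of cells with a count of up to 1.76%. The astrocyte share is thus close to the highest that the endothelial cells allow. Such a limit covers cells with a count at this depth, not cells expressing the gene. The order for Emx1 depends on the settings. By share of cells, its highest type was layer 6b or subplate at 1000 counts a cell and upper layer at 2000. At 1000 counts a cell it was other GABAergic cells with clustering at resolution 0.5 and layer 6 corticothalamic at resolution 2.

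Tbr1 was highest in layer 6b or subplate cells at 363 ± 19.1 CPM, followed without overlap by Cajal-Retzius cells at 277 ± 43.8 CPM. The layer 6b or subplate cluster had 3 of its 6 markers at 2-fold or more. Syt6, a marker on the layer 6 corticothalamic list, was also among its leading genes. The unnamed cluster 18, led by Trhr and Tshz2, stood at 140 CPM and other excitatory neurons at 138 CPM, and upper-layer neurons held 105 CPM of Tbr1. Endothelial cells held 5.06 CPM. Tbr1 was found in 29.3% of 215 layer 6b or subplate cells at 1000 counts a cell, 22.1% of Cajal-Retzius cells and 1.18% of endothelial cells.

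The 3 Neurod genes did not share an order. Neurod1 was highest in layer 5 pyramidal tract neurons (91.8 ± 18.1 CPM) and upper-layer neurons (65.4 ± 29.7 CPM), which overlapped. In layer 6b or subplate cells Neurod1 was at 3.75 CPM, near the 2.28 CPM of endothelial cells. Neurod2 stood at 371 ± 92.6 CPM in layer 6b or subplate, 282 ± 53.4 CPM in upper-layer neurons, 253 ± 32.4 CPM in cluster 18 and 208 ± 48.1 CPM in other excitatory neurons, where each neighbour in the order overlapped the next. Neurod6 was highest in cluster 18 (1070 ± 75.0 CPM), above upper-layer (866 ± 41.6 CPM) and other excitatory neurons (835 ± 143 CPM), which overlapped each other. It stood at 411 ± 75.5 CPM in layer 6b or subplate cells. Layer 6b or subplate cells were thus at the top of the order for Tbr1 and Neurod2 and lower for Neurod1 and Neurod6. This order depends on the clustering: at resolution 0.5 no cluster took that name, and at resolution 2 it held 105 cells instead of 326. The layer 6 corticothalamic name covered 140 cells at resolution 1, 464 at 0.5 and 360 at 2. The line between these names thus moved with the resolution, and the cells named layer 6b or subplate may include corticothalamic neurons. By share of cells, the highest type for Tbr1 was then Cajal-Retzius at resolution 0.5 and still layer 6b or subplate at resolution 2, and for Neurod2 it was layer 6 corticothalamic at 0.5 and upper layer at 2.

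Neurod6 counts were also found in every non-neuronal type, at 20.5 CPM in endothelial cells and 141 CPM in microglia. At 1000 counts a cell, Neurod6 was found in 41.2% of control excitatory cells, against 4.48% of astrocytes and 2.94% of endothelial cells. Neurod2 was found in 20.4% of control excitatory cells (18.6% to 22.3%) and in 0.588% of endothelial cells. Among 3032 excitatory cells of all 4 libraries at that depth, 41.0% of 553 cells with a Neurod2 count also had Neurod6, and 37.2% of the cells without Neurod2 had it.

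Over the 24 D1Tom clusters, the correlation of log2(CPM + 1) was highest between Neurod2 and Neurod6 (Pearson r = 0.93), followed by Neurod2 with Tbr1 (0.85) and Neurod6 with Tbr1 (0.78). Emx1 went most with Neurod1 (0.71), and Emx2 most with Pax6 (0.63), while Pax6 and Neurod2 ran opposite (-0.53). All clusters share the same 4 libraries and their free RNA, so these are descriptions. Among 14207 other genes, Hivep2 (0.93) and Pgm2l1 (0.91) were among those closest to Neurod6. Ptk2b (0.94) and Rprml (0.93) were among those closest to Neurod2. Tbr1 was closest to Klhdc8a and Sv2b (both 0.86) and to Slc17a7 (0.85), the vesicular glutamate transporter. Pax6 was closest to Ccnd2 (0.93), a cyclin of the cell cycle, and to Pou3f4 and Ezr (both 0.91). Emx2 was closest to Ston2 and Efhd1 (both 0.87) and to Lhx2 (0.85), another cortical progenitor factor. Neurod1 was closest to Rbm24 (0.88), Adcyap1 (0.87) and Prdm8 (0.86). Emx1 had weaker neighbours in Dact2 (0.78), Wnt3 (0.77) and Thegl (0.73), as had Eomes in Rsph4a (0.68), Hdac4 (0.66) and Pappa (0.65), where Eomes rests on few cells.

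Eomes had few counts in these cells, 89 counts in 20 D1Tom cells in all, at 4, 0, 72 and 13 counts in control 1, control 2, cKO 1 and cKO 2. In the controls only 2 Cajal-Retzius cells of control 1 held the 4 counts. At 1000 counts a cell it was found in 0 of 1895 control excitatory cells, which allows a share of cells with a count of up to 0.158%. In cKO 1, 3 cells of the layer 6b or subplate cluster held 41 Eomes counts. Those 3 cells together also held 310 counts of Cdhr1, 28 of Tbx21, 31 of Doc2g, 23 of Shisa3 and 28 of Ms4a15. These 5 genes are known from olfactory bulb projection neurons and were looked up after the Eomes cells had been seen. In cKO 1, 1 cell named as Lhx6 interneuron held 12 Eomes and 44 Cdhr1 counts. In cKO 2, 1 cell of the unnamed cluster 20 held 5 Eomes counts and 2 dividing cells held 4. Those cKO 2 cells had no count of the 5 genes, and 10 and 44 counts of Pax6. Over the whole cKO 1 library Cdhr1 had 466 counts against 136, 94 and 61 in control 1, control 2 and cKO 2. Per the labels' protocols the isocortex was separated from olfactory areas at dissection. The part of cells with olfactory bulb genes in the Eomes difference was not tested.

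The study compared cKO with control within each sort. Over all D1Tom cells, 7 of the 8 members had libraries that did not overlap between genotypes, as the plot of each member by library shows. Emx1, Tbr1, Neurod1, Neurod2 and Neurod6 were lower in both cKO libraries, where 13.9% of 15054 genes with at least 20 counts were lower in that way. Pax6 and Eomes were higher in both, where 9.73% of those genes were. Emx2 overlapped. No gene of 14508 passed edgeR's quasi-likelihood test at a Benjamini-Hochberg adjusted p of 0.05 (0.0%), so no member passed it. At an unadjusted p under 0.05, edgeR had 320 genes (2.21%) and 6 of the 8 members. DESeq2 called 20 genes (0.138%), of which Emx1 was the 1 member. With the block, edgeR called 1 gene (0.00689%) and no member.

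**Figure D2:**
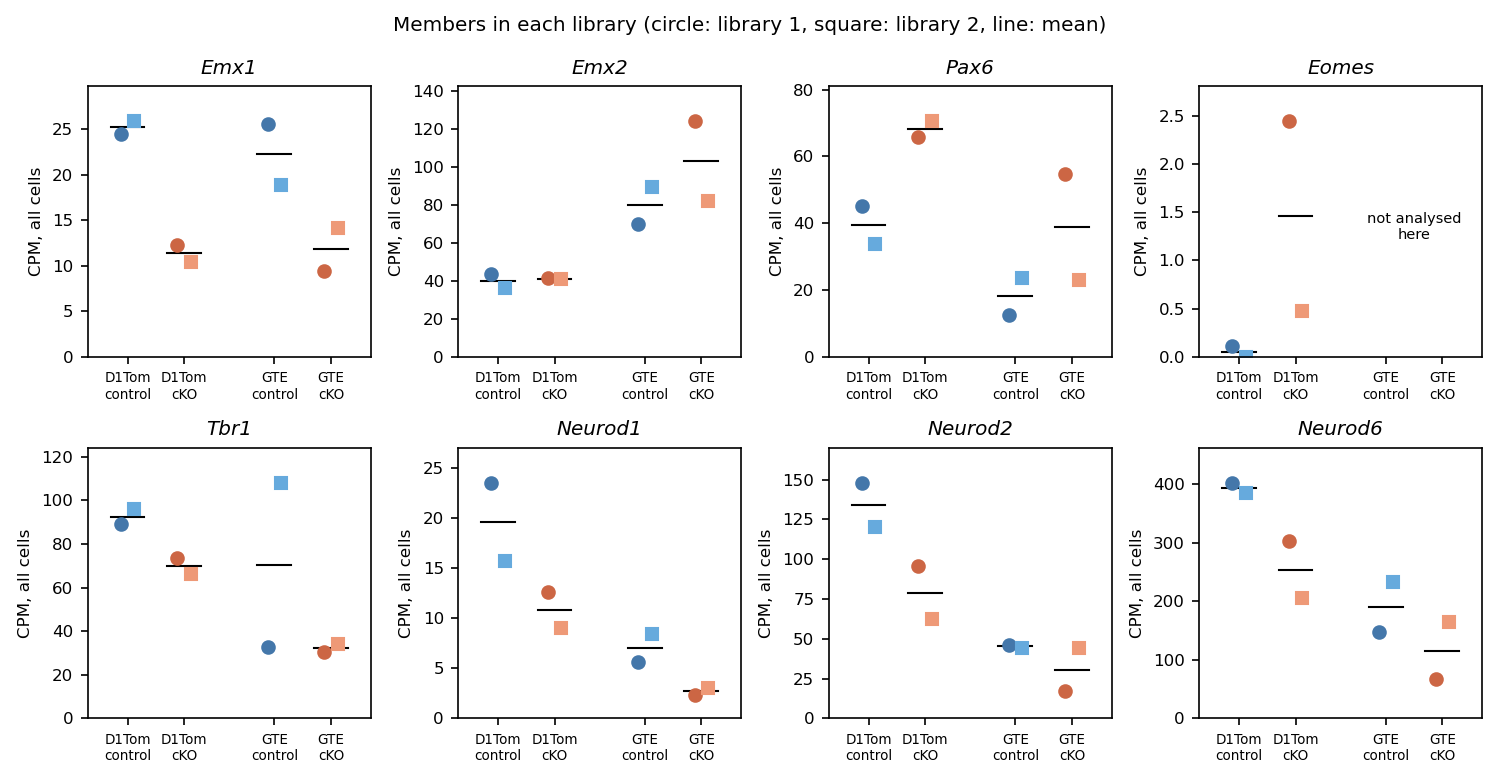
Level of each gene in each library over all cells, in CPM (vertical axis, from 0), by sort and genotype (horizontal axis). Circles are library 1, squares library 2 and lines the group mean. In D1Tom, both cKO points lie below both controls for Emx1, Tbr1, Neurod1, Neurod2 and Neurod6 and above them for Pax6 and Eomes.

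Emx1 stood at 24.5 and 25.9 CPM with control genotype (libraries 1 and 2) against 12.3 and 10.4 CPM with cKO. The edgeR estimate was -1.09 ± 0.16 (log2 cKO against control, SE, adjusted p 0.998). DESeq2's adjusted p for Emx1 was 0.00219. The log2 ratio of CPM was -0.998 within batch 1 and -1.31 within batch 2. In each batch this was the most negative ratio of the 8 members.

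Neurod2 read 148.05 and 120.6 CPM with control against 95.8 and 62.4 CPM with cKO genotype, an edgeR estimate of -0.71 ± 0.19. Neurod6 read 402 and 385 CPM against 303 and 205 CPM (-0.58 ± 0.19), and Neurod1 read 23.5 and 15.7 CPM against 12.5 and 9.04 CPM (-0.80 ± 0.22). Tbr1 read 88.9 and 95.9 CPM against 73.5 and 66.4 CPM (-0.34 ± 0.15). All 4 were lower in the cKO library of each batch. Beside them, the excitatory share of a library's counts was 43.3% and 43.2% in control libraries against 32.9% and 20.3% with cKO. The summed level of 33 excitatory markers was 1874 and 1905 CPM against 1735 and 1496 CPM, with 10 markers lower in both cKO libraries and 3 higher, and none at 0. In summed libraries, fewer cells of a type and less RNA of a gene per cell cannot be told apart.

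Within D1Tom excitatory neuron-like cells, which come from the same libraries, Emx1 was again lower in both cKO libraries, and 3 of the other 4 neuronal factors overlapped between genotypes. Emx1 was at 38.1 and 41.6 CPM with control against 21.0 and 20.0 CPM with cKO genotype, an edgeR estimate of -0.99 ± 0.15 (adjusted p 1.00), and the groups did not overlap. Neurod6 was at 769 and 682 CPM against 681 and 506 CPM (-0.33 ± 0.17), the only other member whose libraries did not overlap. Of 13636 genes with at least 20 counts, 9.53% were lower in this way and 16.1% higher. Neurod2 was at 293 and 209 CPM against 219 and 157 CPM, and Tbr1 at 158 and 148 CPM against 138 and 153 CPM. Neurod1 was at 51.5 and 30.2 CPM against 31.6 and 27.6 CPM. These 3 overlapped. The summed level of the 33 excitatory markers in these cells was 2768 and 2708 CPM against 2793 and 2487 CPM. Upper-layer neurons, among the types highest for Emx1, were 267 of 1041 and 266 of 861 excitatory cells in control libraries. With cKO they were 96 of 686 and 53 of 462, and the part of this shift in the pooled Emx1 values was not tested.

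No gene of 13086 passed edgeR's test there (0.0%), with 160 genes (1.22%) and 1 of 7 members at an unadjusted p under 0.05, and DESeq2 called 3 genes (0.0229%) and no member. With the replicate number as a block, which in D1Tom is the batch, edgeR called 55 genes (0.42%), among them Emx1 (adjusted p 0.00515) and Pax6 (adjusted p 0.0197). Ratios of Emx1 to the other factors were also taken within each library. Per 1000 counts of Tbr1 in excitatory cells there were 241 and 281 counts of Emx1 in control libraries against 152 and 131 with cKO. Per 1000 counts of Neurod6 there were 49.6 and 61.0 against 30.9 and 39.6. Per 1000 of Neurod2 there were 130 and 199 against 95.9 and 127. None of the 3 ratios overlapped between genotypes in excitatory cells. Over all D1Tom cells the ratio to Neurod2 did overlap (166 and 214 against 128 and 167), and those to Tbr1 and Neurod6 did not.

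Emx1 was tested in 9 D1Tom types or clusters. The cKO libraries were both below both controls in 8 of them, where 13.3% of all gene values in the 11 fitted types were lower in that way (8.32% to 17.1% by type). All types were drawn from the same 4 libraries, so they do not repeat the test independently. In layer 6b or subplate cells Emx1 was at 52.1 and 41.7 CPM in control libraries against 17.2 CPM in each cKO library, an edgeR estimate of -1.47 ± 0.31 (adjusted p 0.997). In upper-layer neurons it was at 48.6 and 73.5 CPM against 33.3 and 40.5 CPM. Oligodendrocyte precursors held 15.6 and 21.2 CPM of Emx1 against 7.01 and 7.54 CPM, so the direction was also seen under a non-neuronal name. Their controls also held a mean of 149 CPM of Neurod6, and the part of neuronal RNA in their Emx1 was not tested. Dividing cells held 9.85 and 13.6 CPM against 6.04 and 5.37 CPM. The exception was the Adarb2 interneurons, at 2.46 and 17.97 CPM against 2.53 and 10.3 CPM. No member passed edgeR's test in any of 66 member tests within D1Tom types (0.0035% of all tests there passed), and DESeq2 called none of them (0.0201%). With the block (0.539%), edgeR called 4 of the 66, Emx1 (adjusted p 0.0005) and Pax6 in layer 6b or subplate and Pax6 and Neurod2 in dividing cells. These block p-values also lean on a spread estimated across genes.

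**Figure D3:**
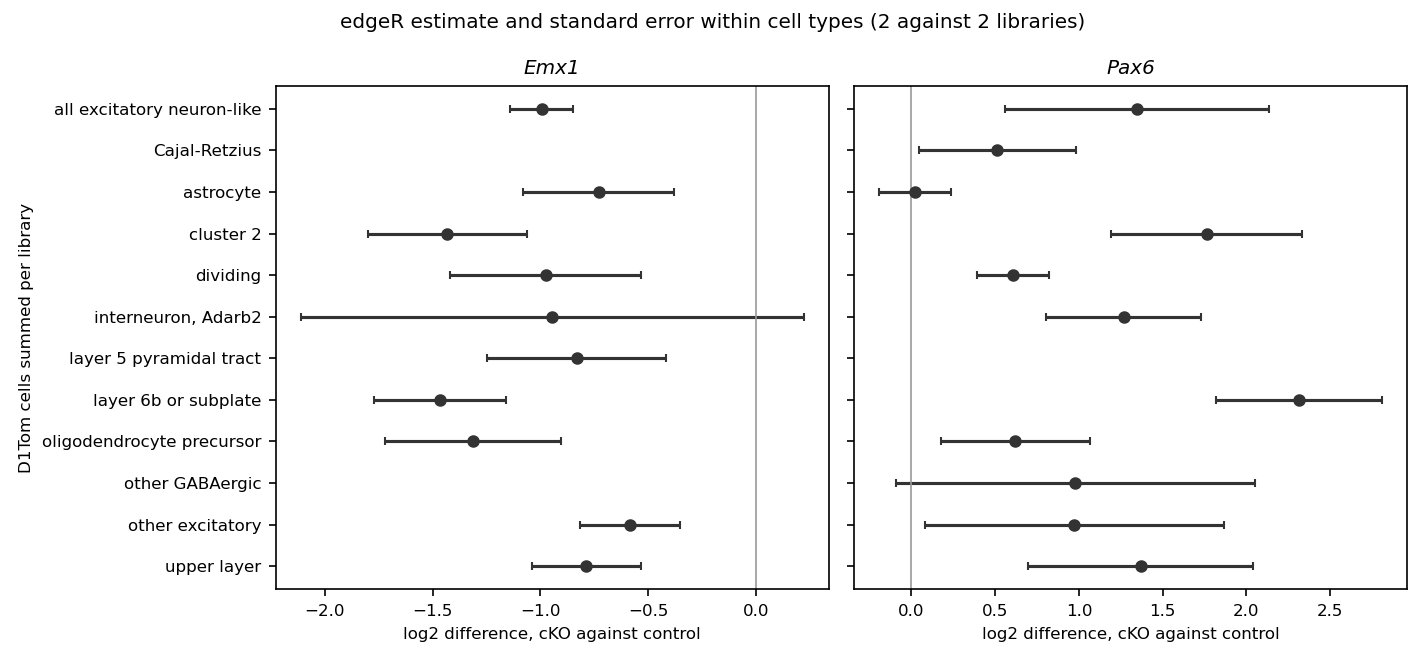
edgeR estimates of the log2 difference of cKO against control (horizontal axis) for Emx1 and Pax6 in D1Tom types (vertical axis) with their standard errors, 2 against 2 libraries. All 9 Emx1 estimates by type lie below 0, from -1.47 to -0.59, and all 10 Pax6 estimates by type above 0, from 0.02 to 2.31.

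Pax6 went the other way. Over all D1Tom cells it stood at 45.1 and 33.6 CPM with control against 65.9 and 70.5 CPM with cKO genotype, an edgeR estimate of 0.87 ± 0.18 (adjusted p 0.998; DESeq2 0.0715). The log2 ratio was 0.55 in batch 1 and 1.07 in batch 2. The 4 libraries drew their Pax6 counts from different cells, as the bars by cell type show. Astrocytes gave 70.1% and 39.1% of the Pax6 counts in control libraries against 33.1% and 21.3% with cKO. In CPM of the whole library the astrocyte part overlapped between genotypes, at 31.6 and 13.2 CPM against 21.8 and 15.04 CPM. The dividing part was 7.67 and 6.01 CPM against 12.9 and 17.1 CPM, without overlap, and all cells outside the classes shown gave 3.55 and 10.04 CPM against 12.5 and 22.3 CPM. The unnamed cluster 20, led by Veph1 and Sfrp1, gave 0.915% and 0.579% against 19.3% and 6.54%, and the Sp8 Sp9 neuroblast cluster 0.854% and 0 against 5.66% and 8.20%.

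Both clusters had more cells in the cKO libraries. Cluster 20 had 9 and 10 cells in the controls against 84 and 48, and the neuroblast cluster 22 and 4 against 104 and 69. Of the 7 neuroblast markers, 5 were higher in both cKO libraries over all cells, Sp8 at 10.995 and 7.90 CPM against 30.6 and 32.4 CPM among them, and none was at 0. Without both clusters, the edgeR estimate for Pax6 was 0.65 ± 0.21 and that for Emx1 -1.08 ± 0.16, a setting chosen after the data were seen.

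**Figure D4:**
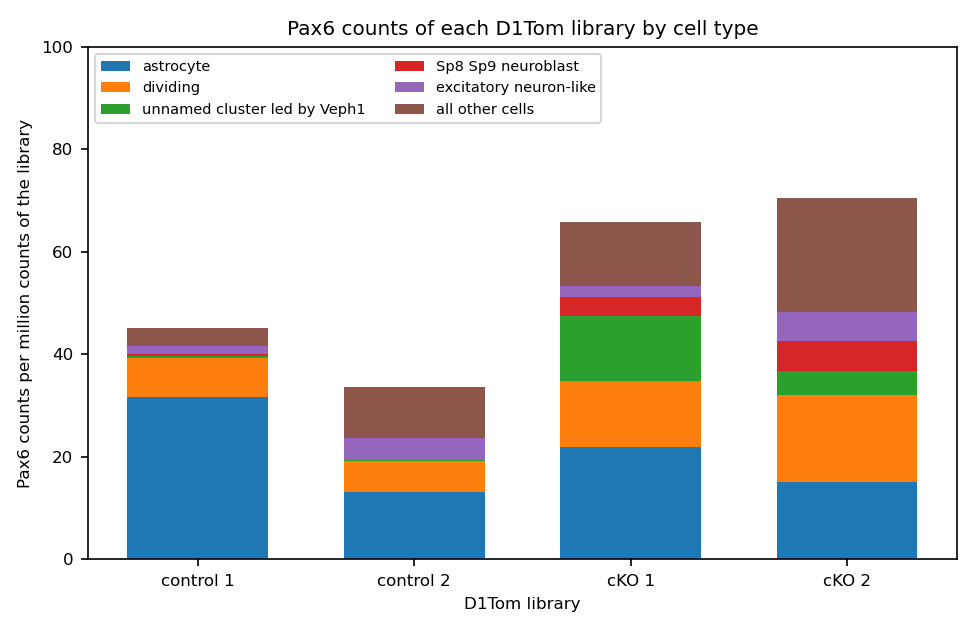
Pax6 level of each D1Tom library in CPM (vertical axis), stacked by the cell type they came from. Bars reach 45.1 and 33.6 CPM with control against 65.9 and 70.5 CPM with cKO genotype, and the astrocyte section is the largest in each control.

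Within astrocytes, where Pax6 was highest, the libraries overlapped at 162 and 140 CPM against 158 and 148 CPM (edgeR 0.02 ± 0.21). Dividing cells had 119 and 95.0 CPM against 153 and 156 CPM (0.61 ± 0.21), and in them the neuroblast list summed to 659 and 697 CPM with control against 1003 and 1049 CPM with cKO genotype. Layer 6b or subplate cells had 3.28 and 8.11 CPM of Pax6 against 26.3 and 29.3 CPM, an edgeR estimate of 2.31 ± 0.50 (adjusted p 0.997). Without control 2 its adjusted p was 0.0282. This rests on 8, 14, 29 and 29 Pax6 counts in 5 of 120, 10 of 95, 7 of 42 and 23 of 69 cells of control 1, control 2, cKO 1 and cKO 2. The astrocyte list in the same cells summed to 928, 2295, 1424 and 2892 CPM, higher in cKO than in control within each batch, and its part in the Pax6 values was not tested. Pax6 was tested in 10 types, and both cKO libraries were above both controls in 6 of them, where 12.9% of all gene values were (7.77% to 18.2% by type). Endothelial cells, which should lack Pax6 and were too few to be fitted, rose in this way too. Their means were 6.23 CPM with control against 14.98 CPM with cKO. Of the 6 types, cluster 2 (14.5 CPM) and upper-layer neurons (9.11 CPM) had cKO means below that endothelial level. The cKO means of the others were 27.8 CPM or more. The part of free RNA in these rises was not tested.

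Over all excitatory neuron-like cells Pax6 was at 3.43 and 9.84 CPM with control against 6.91 and 28.1 CPM with cKO genotype, so the groups overlapped. Its edgeR estimate was 1.35 ± 0.79 and turned to -0.03 without cKO 2. The astrocyte list in these cells read 439 and 1249 CPM in control 1 and 2 and 577 and 1903 CPM in cKO 1 and 2, the same order as Pax6, and its part was not tested.

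Over all D1Tom cells Emx2 overlapped between the genotypes. It stood at 43.6 and 36.3 CPM with control against 41.4 and 40.9 CPM with cKO genotype, an edgeR estimate of 0.11 ± 0.15. In Cajal-Retzius cells, its highest type, Emx2 was at 387 and 246 CPM against 358 and 176 CPM (-0.24 ± 0.41). In astrocytes its edgeR estimate was -0.01 ± 0.24. The libraries did not overlap for Emx2 in 3 of 9 types. Emx2 was lower with cKO in cluster 2 (-0.65 ± 0.33) and dividing cells (-0.37 ± 0.22) and higher in layer 6b or subplate cells (1.25 ± 0.66). Of all gene values in the 11 fitted types, 13.3% were lower and 12.9% higher in this way. None of the 3 passed the adjusted edgeR test. Tbr1 in Cajal-Retzius cells was at 308 and 246 CPM against 318 and 241 CPM (0.02 ± 0.30), and in layer 6b or subplate cells at 377 and 350 CPM against 304 and 331 CPM (-0.21 ± 0.20). In layer 5 pyramidal tract neurons, where Neurod1 was highest, Neurod1 was at 105 and 79.0 CPM against 61.8 and 62.3 CPM (-0.59 ± 0.21) and Neurod6 at 287 and 352 CPM against 230 and 213 CPM (-0.55 ± 0.17). Neither passed the adjusted edgeR test.

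In the shallower GTE sort Emx1 also had both cKO libraries below both controls. Its levels over all cells were 25.6 and 18.9 CPM with control against 9.47 and 14.1 CPM with cKO genotype, an edgeR estimate of -1.25 ± 0.55 (adjusted p 0.896). That estimate was -0.76 without control 1, -0.69 without cKO 1 and -2.03 without cKO 2. Neurod1 (5.58 and 8.40 CPM against 2.37 and 3.01 CPM) and Neurod2 (46.3 and 44.5 CPM against 17.0 and 44.4 CPM) also did not overlap, though Neurod2 in cKO 2 was close to the controls. Of 12821 genes, 6.97% were lower in this way and 19.9% higher. The unscaled median of all genes was 0.387 higher in the cKO libraries (log2), and the edgeR estimates are relative to that shift. Per 1000 counts of Tbr1 over all GTE cells there were 784 and 175 counts of Emx1 with control against 310 and 412 with cKO. Per 1000 of Neurod6 there were 174 and 81.1 against 141 and 86.3, and per 1000 of Neurod2 553 and 424 against 558 and 319. Each of these ratios overlapped between genotypes.

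Pax6 was at 12.6 and 23.6 CPM in the GTE controls against 54.6 and 23.0 CPM with cKO, Emx2 at 69.9 and 89.8 CPM against 124 and 82.0 CPM, and Neurod6 at 148 and 232 CPM against 67.1 and 164 CPM. Tbr1 read 32.7 and 108 CPM against 30.6 and 34.3 CPM. The 4 overlapped, and control 2 alone was high for Tbr1. The library of GTE cKO 1 stood apart in its cells. Its oligodendrocyte precursor list summed to 1887 CPM against 314 to 574 CPM in the other 3, its oligodendrocyte list to 972 CPM against 105 to 158 CPM and its astrocyte list to 6435 CPM against 2303 to 5113 CPM, with no marker of these lists at 0, and it gave 515 of 636 cells of an astrocyte cluster. It also held the highest Pax6 and Emx2 and the lowest Neurod1, Neurod2 and Neurod6. Without it the edgeR estimate went from 0.66 to 0.38 for Pax6, from -0.79 to -0.051 for Neurod2 and from -0.90 to -0.19 for Neurod6, and from -1.68 to -1.19 for Neurod1. Of 12042 genes edgeR called 4 (0.0332%), no member among them, with 629 genes (5.22%) and 3 of 7 members at an unadjusted p under 0.05, and DESeq2 called none. In the GTE cells with excitatory marker counts only Tbr1, Neurod2 and Neurod6 could be tested, and none of 4163 genes passed edgeR (0.0%), with 28 genes (0.673%) and no member at an unadjusted p under 0.05, and DESeq2 called none. Emx1 in those cells rested on 5, 11, 5 and 3 counts.

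The difference between the genotype effects of the sorts was tested as an interaction. None of 14026 genes, and so none of 7 members, passed edgeR's test (0.0%), with 452 genes (3.22%) and no member at an unadjusted p under 0.05, and DESeq2 called 6 genes (0.0428%) and no member. The interaction estimate was -0.17 ± 0.61 for Emx1 and -0.20 ± 0.45 for Pax6. Between the sorts in control mice, Emx2 was higher in GTE than in D1Tom, with an edgeR estimate of 1.66 ± 0.32 (adjusted p 0.0498), where 196 of 13823 genes (1.42%) were called. Emx2 was the 1 member called. Without either D1Tom control the call was lost, with adjusted p values of 0.528 and 0.641. Sort, reporter transgene, animals and depth cannot be told apart in that comparison.

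Of 32 other genes of the excitatory lineage, 28 were tested in each sort and none passed edgeR's test. In D1Tom, 14 of the 28 had a lower estimate and the list's median log2 estimate was -0.0011 beside -0.00757 over all genes tested. Among the smallest p values of the lower estimates were those of Cux2 (46.3 and 45.9 CPM against 32.1 and 31.1 CPM, -0.48), an upper-layer factor, and Myt1l (-0.38), a neuronal factor. The smallest p values among the higher estimates were those of Insm1 (3.57 and 4.53 CPM against 11.5 and 18.1 CPM, 1.95), a factor of neurogenic progenitors, Gli3 (0.82) and Sox2 (0.44), both factors of neural progenitors and glia. None of these 5 overlapped between the genotypes, but they were picked by their p values in the same libraries, so this adds no support. Of all genes with at least 20 counts, 13.9% were lower and 9.73% higher in that way. The unadjusted edgeR p was 0.0673 for Myt1l and 0.0712 for Sox2. The Sox2 estimate was 0.20 without cKO 2. In GTE, Bhlhe22 (-1.26) and Cux2 (-1.19) had some of the smallest p values among the lower estimates, and Hes1 (0.86), Otx1 (0.79) and Dmrta2 (0.79) had the smallest among the higher, and 17 of 28 were lower. Hes1 was at 66.3 and 88.8 CPM against 310.2 and 94.1 CPM, so cKO 1 alone was high. Otx1 and Dmrta2 were also highest in cKO 1. With 1 library left out, the estimates ranged from 0.29 to 1.26 for Hes1, 0.34 to 1.49 for Otx1, 0.43 to 1.07 for Dmrta2 and -2.18 to -0.66 for Bhlhe22. The estimate nearest 0 came without control 1 for Otx1 and without cKO 1 for the other three.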

How the data were processed

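Counts per gene and cell were used as the authors deposited them in 2 tables, 1 per sort, with cells assigned to libraries by the deposited cell tables. Per the submitters' processing notes, the authors used bcl2fastq 2.17.1.14, Cell Ranger 2.1.1, FastQC 0.11.5, UMI-tools 0.5.4, STAR 2.5.2b, featureCounts of Subread 1.6.2 and SAMtools 1.6 with the builds mm10 and GRCm38.p6. The deposited cell tables also give each cell's total count and fraction of mitochondrial counts, computed by the authors and used here for description. How cells were filtered before deposit is not given in the sources used here.

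Counts were summed per library, or per library and cell type (at least 30 cells in each library), and tested with edgeR 4.0.16 (R 4.3.3; TMM factors, filterByExpr, quasi-likelihood test), with Benjamini-Hochberg adjustment over all genes and a threshold of 0.05. DESeq2 1.42.0 was an alternative. The fit was tested on simulated data. CPM values divide by the library's or cell type's total and carry no TMM factor. With 2 against 2 libraries an exact permutation test cannot go below a two-sided p of 0.333, so none was made.

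Cells with at least 500 counts (143 GTE cells had fewer) were clustered with scanpy 1.11.5 and leidenalg 0.10.2 on 2000 variable genes without the members, 30 components, 20 neighbours and resolution 1. A cluster took a name from at least 3 markers at 2-fold or more and a median of at least 2-fold over the list, where no other list had more markers among the 10 leading genes. Of the named clusters, 4 in D1Tom (both astrocyte clusters, 1 of other excitatory neurons and that of layer 5 pyramidal tract neurons) and 1 in GTE (astrocyte) had none of their markers among those 10. Doublets were kept, and leaving out the highest Scrublet-type scores, 0.8% of cells per 1000 cells, was an alternative. No GTE cluster took an excitatory name, so GTE excitatory cells were taken by marker counts, which differs from the planned clusters.

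Text names all members, Foxp2, the 3 lineage genes with the smallest p in each direction and the 3 closest genes per member, except 1 gene that is not reported here. Olfactory bulb genes and clusters 18 and 20 were added once the data had been examined. The members and lists were chosen with earlier results of these data known. D1Tom replicate numbers mark shared batches, and same-numbered libraries deviated together (correlation 0.53 over 11141 genes). The GTE labels repeat the D1Tom wording, and their batches were not used.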

Additional observations from a re-analysis of the deposited data

How the results depend on the processing

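Of 468 single-gene values under alternatives other than leaving out a library, 449 kept direction and side of the threshold, 11 came to pass it and 8 changed sign. The cause of these changes was not tested. DESeq2 called 1 member (Emx1) and 1 lineage gene over all D1Tom cells, against 0 and 0 by edgeR. The replicate block called 2 members in D1Tom excitatory cells and 4 within D1Tom types, and changed no other count of members called. Testing without a filter on low counts called 3 within D1Tom types, all in layer 6b or subplate (Emx1, Pax6 and Eomes). The Eomes counts of that type were all in 3 cells of cKO 1, the same cells that held counts of olfactory bulb genes. Leaving out a library gave 0 to 1 calls within D1Tom types (Pax6 without control 2 and Eomes without cKO 2, both in layer 6b or subplate), 0 to 2 within GTE types (Neurod2 and Neurod6 of cluster 1 without cKO 2) and 0 to 2 in GTE against D1Tom. There, Emx2 lost its call without either D1Tom control, and Neurod2 (adjusted p 0.0414 by edgeR) came to pass without GTE control 1 and Emx1 (adjusted p 0.0373) without GTE control 2. At resolution 0.5, 2 members instead of 4 had their highest share of cells in an excitatory type. The Emx2 estimate in D1Tom excitatory cells, -0.00, was 0.016 with DESeq2, 0.0074 with RLE factors, 0.0040 without shared barcodes, 0.069 in cells of at least 5000 counts, 0.028 with cluster 18 added and 0.0064 at resolution 0.5. In neuron-like GTE cells alone, the edgeR estimate was 3.32 for Emx2 and 0.38 for Tbr1. Those cells were only the Cajal-Retzius cluster, with 10, 83, 32 and 6 cells in control 1, control 2, cKO 1 and cKO 2. Emx2 stood there at 0 CPM in control 1 and 62.0 CPM in control 2, so these estimates do not describe GTE neurons in general.

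Estimates that changed sign when a library was left out ranged, in D1Tom excitatory cells, from -0.48 to 0.39 for Emx2 and from -0.027 to 2.32 for Pax6. In D1Tom types Pax6 ranged from -0.076 to 0.12 in astrocytes, -1.81 to 2.36 in other GABAergic cells and -1.15 to 1.89 in other excitatory neurons, and Emx1 from -1.94 to 0.23 in Adarb2 interneurons. Over all GTE cells Emx2 ranged from -0.11 to 0.046. In GTE excitatory cells Tbr1 ranged from -1.17 to 1.20 and Neurod6 from -0.025 to 1.23. In the interaction the ranges were -0.92 to 0.36 for Emx1, -0.51 to 0.046 for Pax6, -1.46 to 0.62 for Neurod2 and -1.61 to 0.37 for Neurod6, and between sorts -0.57 to 0.68 for Tbr1. Same-numbered GTE libraries had a correlation of -0.37 in their deviations, and with the numbers crossed edgeR called 24 genes and 0 members, a setting chosen after the data were seen. Clustering at resolution 0.5 left no GTE excitatory cells, and at resolution 2 no member could be tested there. With a library left out, the lone library is taken to vary like the others. In GTE excitatory cells 4 of 7 members had too few counts to test, as had all 7 in GTE committed oligodendrocyte precursors.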
